A study of Homo sapiens with 6 samples.

Results

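The BCL2 family decides whether a cell keeps its mitochondria intact or releases the factors that start apoptosis. Anti-apoptotic members hold the pore-forming members BAX and BAK1 in check, and BH3-only members, so called after the single short domain they share with the rest of the family, either neutralise the anti-apoptotic members or activate the pore formers directly. Senescent cells are known for resisting apoptosis, and compounds that block anti-apoptotic members of this family are used to kill them. The 10 genes described here were chosen by name, with earlier results of these data known. These are the anti-apoptotic BCL2, BCL2L1, MCL1 and BCL2A1, the pore formers BAX and BAK1, and the BH3-only genes BID, BIK, BBC3 and PMAIP1. They were read by 22 of the 22215 probe sets tested, and 9 of them were among the 11963 genes that a probe set with a single gene symbol represented.

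Of the 6 arrays, 3 held RNA from WI-38 fibroblasts that overexpressed RASv12 and were labelled senescent, and 3 held RNA from wild type WI-38 fibroblasts labelled growing. WI-38 is a diploid fibroblast strain from human fetal lung, and RASv12 is a permanently active RAS protein, which drives normal fibroblasts into a lasting arrest. Retroviral infection and culture at 3% oxygen are given in the protocol for both groups, with no word on whether the growing cells received an empty virus, so infection and RASv12 cannot be told apart. The labels also give Cy3 for the RASv12 samples and Cy5 for the control samples, although the labelling kit and probe sets are Affymetrix, whose arrays are read in 1 colour, so these dye entries are doubtful. If they hold, dye and group cannot be told apart. The labels do not say that replicates were separate cultures, so the p-values speak for the spread among these arrays, and part of it may be technical.

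RASv12 arrays had median intensities of 26.1 to 33.5 and control arrays of 29.8 to 31.7, and arrays correlated at 0.975 to 0.987 within groups and at 0.912 to 0.928 between them. HRAS averaged 853 ± 123 in intensity in RASv12 cells and 215 ± 23.0 in control cells (SD, n = 3 each). Fibroblast markers summed to between 7777 and 9116 in RASv12 cells and between 18439 and 20873 in control cells. Of 9 such markers measured, 7 fell and 2 did not pass, with VIM, the mesenchymal intermediate filament, at an intensity of 4672 in RASv12 cells and 5029 in control cells. Of 5 epithelial markers, 4 were at or under the background level on every array. The 5 endothelial markers summed to between 47.2 and 99.8 in RASv12 cells and between 102 and 128 in control cells. Of these TEK, an angiopoietin receptor gene, was called lower (limma adjusted p = 0.0023), with 16.2, 34.2 and 29.0 on RASv12 arrays and 72.5, 71.9 and 91.2 on control arrays. PECAM1 averaged 30.9 in RASv12 cells and 18.4 in control cells and did not pass. CDH5, VWF and KDR were under the background level on every array. The part of the marker differences in the family's results was not tested.

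In RASv12 cells, 12 of the 22 probe sets of the family rose, none fell and 10 did not pass. The test was limma on quantile-normalized log2 values, with p-values adjusted by Benjamini-Hochberg across every probe set. Over all 22215 probe sets, 11.3% were called higher and 13.0% lower at the same threshold, an adjusted p of 0.05. For the zero count of falls, no member was lower at an unadjusted p of 0.05 either, with limma in its usual form or with its trend and robust options. Of the 22, 4 were at or under the background level on every array, where a fall could not be seen, and 12 were above it on all 6. Every RASv12 array lay above every control array for 13 of the 22, against 18.0% of all probe sets, and 7 rose by at least 2-fold, against 3.04% of all. These 7 belong to BCL2A1, MCL1 and PMAIP1 alone, so MCL1 and PMAIP1 are counted more than once. Among them, MCL1 214056_at had a log2 change of 1.36, and of 0.74 with a pseudocount of 64. The median log2 change was 0.60 over the 22 and 0.014 over all probe sets. The rises came from 6 genes: BCL2A1, MCL1 and BCL2L1 among the anti-apoptotic members, BAK1 among the pore formers, and PMAIP1 and BID among the BH3-only members.

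**Figure D1:**
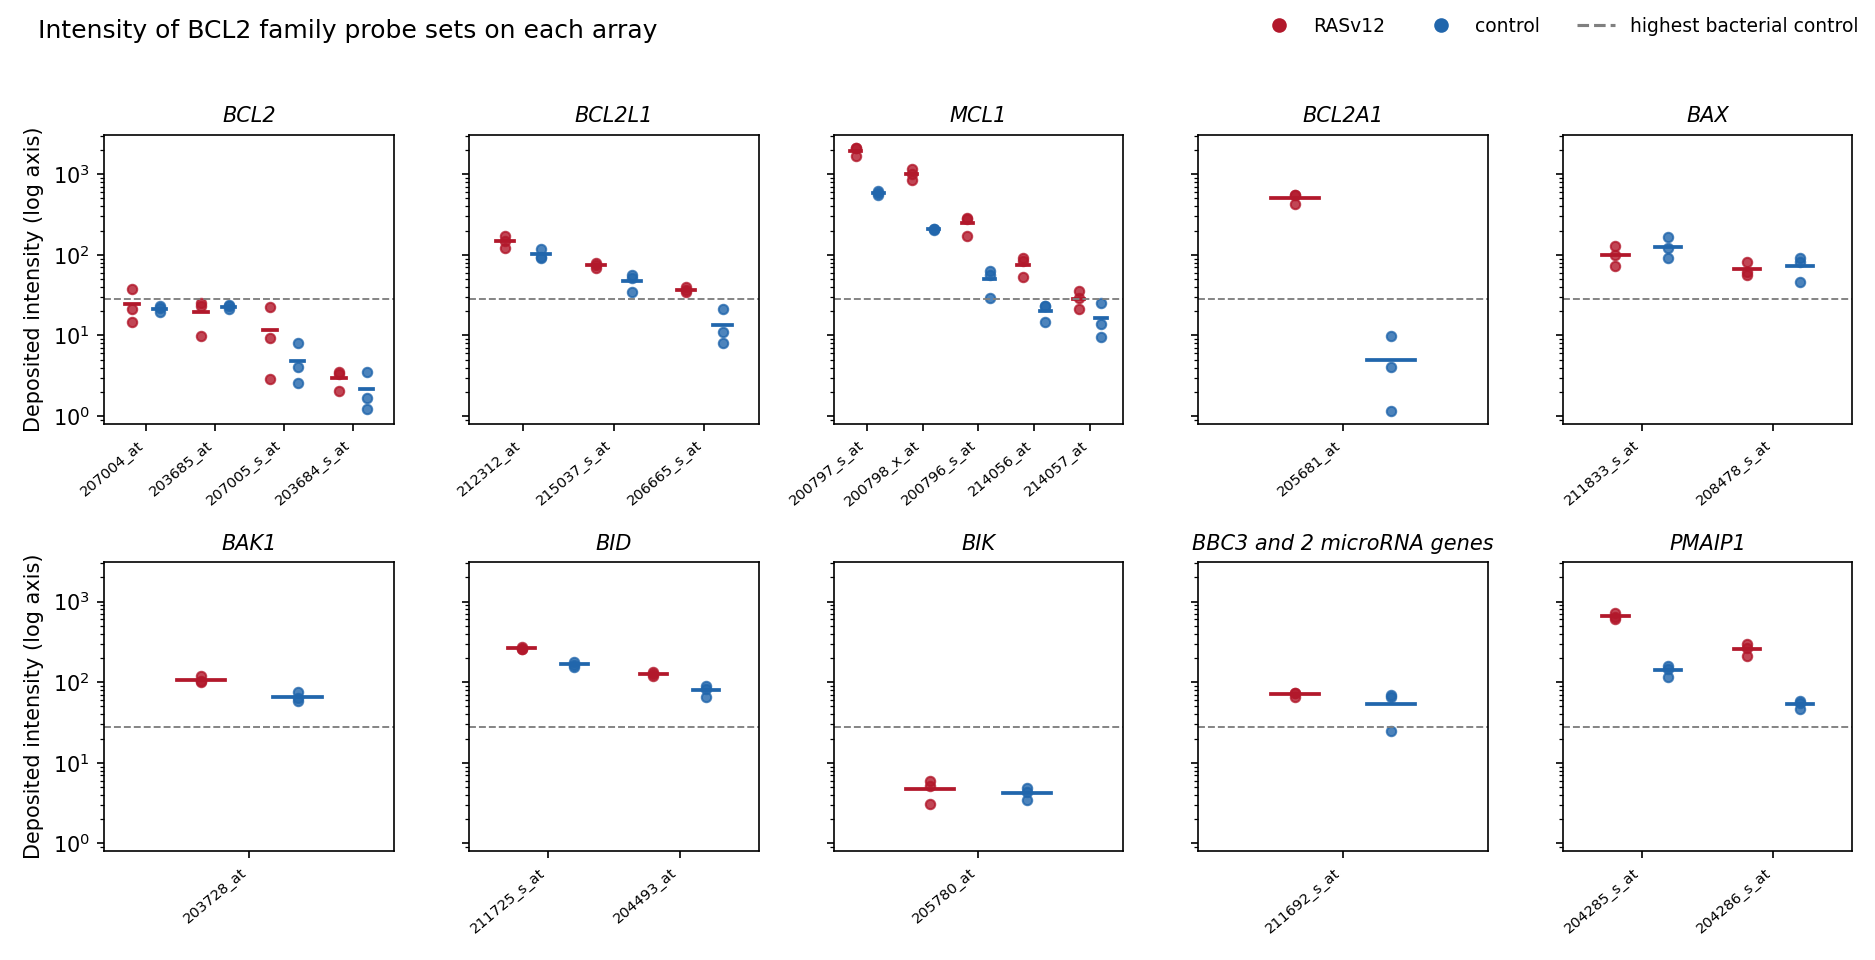
Deposited intensity (log axis) of each of the 22 probe sets on the 3 RASv12 and 3 control arrays, with bars at the group means and a dashed line at 27.98, the highest intensity of any bacterial control probe set. BCL2A1 lies under the line on all 3 control arrays and between 429.7 and 555 on the RASv12 arrays, while the BCL2 and BIK points lie at or near the line or under it in both groups.

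RefSeq promoter windows for assembly GRCh38.p14 were matched for 8 of the 10 genes, all but MCL1 and BIK, as 13 windows. The 250 bases before the transcription start are shown for BCL2A1 and PMAIP1, which rose by more than 2-fold, and for BAX, which did not pass. Capitals mark every match, on either strand, to the 8 motifs searched: TATAAA and TTCNNNGAA, a STAT-type motif, in BCL2A1, the CRE motif TGACG in PMAIP1 and in BAX, and the E-box CACGTG in BAX, where 1 E-box overlaps TGACG.
BCL2A1: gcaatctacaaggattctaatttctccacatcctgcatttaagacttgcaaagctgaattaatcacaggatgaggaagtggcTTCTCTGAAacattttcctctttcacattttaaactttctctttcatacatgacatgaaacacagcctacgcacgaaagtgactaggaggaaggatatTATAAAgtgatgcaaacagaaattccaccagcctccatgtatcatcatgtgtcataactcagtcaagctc
PMAIP1: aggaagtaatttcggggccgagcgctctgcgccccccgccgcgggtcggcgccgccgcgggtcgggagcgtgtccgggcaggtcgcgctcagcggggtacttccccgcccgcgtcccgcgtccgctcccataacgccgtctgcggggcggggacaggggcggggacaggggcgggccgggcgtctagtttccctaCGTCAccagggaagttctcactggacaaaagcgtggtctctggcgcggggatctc
BAX: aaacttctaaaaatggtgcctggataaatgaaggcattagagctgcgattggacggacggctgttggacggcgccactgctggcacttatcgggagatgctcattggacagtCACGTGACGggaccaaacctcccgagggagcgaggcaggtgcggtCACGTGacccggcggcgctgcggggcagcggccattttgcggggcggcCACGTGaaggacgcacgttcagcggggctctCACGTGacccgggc
The windows lie at chr15:79971197-79971446 on the minus strand for BCL2A1, chr18:59899746-59899995 on the plus strand for PMAIP1 and chr19:48954625-48954874 on the plus strand for BAX.

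The promoters of the genes that rose differed in composition. G and C made up 38.8% of the BCL2A1 window and 72.8% of the PMAIP1 window, around a median of 58.0% over all 35116 windows. The BAX window held the E-box 4 times, between 138 and 9 bases before the start, and 6.34% of all windows held it at least once. The E-box also appeared in 2 of the 5 BID windows and in the BBC3 window. TATAAA was found in 10.7% of all windows, in the BCL2A1 window at 70 to 65 bases before the start and in 1 of the 2 BCL2L1 windows. TTCNNNGAA was in 6.57% of all windows and, among the 13, in that of BCL2A1. TGACG was in 21.2% of all windows and in 4 of the 13, those of PMAIP1, BAX and BCL2 and 1 of BCL2L1. The AP-1 motif TGANTCA, present in 6.57% of windows, was in the BBC3 window alone among the 13. The p53 decamer was in 5.57% of all windows and in the BAK1 window, and the CArG box of SRF in 1.16% and in the BCL2 window. The NF-kB consensus was in 5.21% of all windows and in none of the 13, which include no window of MCL1 or BIK. A match is a run of letters, not a bound site, and no match says only that these letters are not in this window.

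BCL2A1 encodes BFL1, an anti-apoptotic protein best known from leukocytes and induced by NF-kB. Its probe set, 205681_at, read 555, 548 and 429.7 in intensity on the RASv12 arrays, against 9.72, 4.10 and 1.17 on the control arrays. All 3 control values lay under 27.98, the highest intensity of 27 bacterial control probe sets on any array, which is used here as the background level. The gap between the groups was wider than the spread within either. Set against that level, BCL2A1 in RASv12 cells was higher by at least 18.1-fold, with limma adjusted p = 1.1e-05. Its fitted log2 change of 4.65 exceeded that of 99.9% of all probe sets, and it depends on the pseudocount because the control values are dim.

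Leukocyte markers were read beside BCL2A1. The 5 measured summed to between 50.2 and 107 in intensity in RASv12 cells and between 36.5 and 62.9 in control cells. PTPRC, which encodes the pan-leukocyte protein CD45, read 4.14, 14.0 and 2.87 on RASv12 arrays and 2.31, 0.939 and 2.69 on control arrays. The monocyte gene CD14 read 2.64, 7.63 and 3.26 on RASv12 arrays and 2.41, 2.05 and 2.02 on control arrays. Both were under the background level on all 6 arrays. CD3E read 11.1, 28.2 and 36.9 on RASv12 arrays and 23.3, 3.96 and 20.2 on control arrays. ITGAM read 15.8, 27.3 and 32.8 on RASv12 arrays and 30.0, 22.6 and 23.4 on control arrays. Neither CD3E nor ITGAM passed, and each had values above background. CSF1R, the receptor of macrophage growth factor, was called higher (limma adjusted p = 0.0056) with 16.6, 23.6 and 31.6 on RASv12 arrays and 4.94, 6.97 and 10.0 on control arrays, so that 1 of the 6 values was above background. The part of CSF1R in the BCL2A1 result was not tested.

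By Pearson correlation over the 6 arrays, the genes most like BCL2A1 in profile were PLA2G4A (r = 0.9994), STEAP1 (r = 0.9992) and WDR47 (r = 0.9992). PLA2G4A encodes a cytosolic phospholipase that frees arachidonic acid, and STEAP1 encodes a membrane protein. STEAP1 averaged 893 in intensity in RASv12 cells and 90.2 in control cells. With groups of 3 arrays that stand apart, such a correlation mostly restates the difference between the groups.

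MCL1 encodes a short-lived anti-apoptotic protein that restrains BAK1 and the BH3-only proteins. It was read by 5 probe sets. The one that stands for the gene, 200797_s_at, read 2113, 2092 and 1679.55 on RASv12 arrays, against 581, 552 and 611 on control arrays. RASv12 replicate 3 was the lowest of its group and still lay above every control. The log2 change was 1.70 ± 0.10 (SE), with limma adjusted p = 8.0e-05.

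The other MCL1 probe sets gave changes of different size. Probe set 200798_x_at, whose suffix marks probes that may also bind other transcripts, read 856, 1173 and 1017 on RASv12 arrays and 210.4, 207 and 206 on control arrays, and rose by 2.19 ± 0.14 in log2 (limma adjusted p = 8.6e-05). Probe set 200796_s_at read 284, 282 and 172 on RASv12 arrays and 29.4, 62.4 and 56.8 on control arrays, a rise of 2.03 ± 0.27 (limma adjusted p = 0.0023). The groups did not overlap in either. Probe set 214056_at was under the background level on all control arrays and was higher in RASv12 cells by at least 2.63-fold (limma adjusted p = 0.0020). Probe set 214057_at read 21.3, 35.1 and 29.2 on RASv12 arrays and 14.1, 9.56 and 25.5 on control arrays, and did not pass (limma adjusted p = 0.13). Its groups overlapped, and 4 of its 6 values were at or under background. It passed with scaling to the hybridization controls (limma adjusted p = 0.049) and without control replicate 3 (limma adjusted p = 0.032).

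BCL2L1 encodes the long form BCL-xL, which blocks apoptosis, and by alternative splicing the short form BCL-xS, which promotes it. The probe set that stands for the gene, 212312_at, read 147, 123 and 173 on RASv12 arrays, against 94.8, 90.8 and 119 on control arrays. Every RASv12 value was above every control value, by a small margin. Over all probe sets it did not pass, with a log2 change of 0.51 ± 0.15 (limma adjusted p = 0.051), and over all genes it did (limma adjusted p = 0.042). Probe set 215037_s_at read 67.7, 75.1 and 79.3 on RASv12 arrays, against 34.9, 55.8 and 51.7 on control arrays. It rose by 0.59 ± 0.15 (limma adjusted p = 0.028). Probe set 206665_s_at read 36.3, 40.2 and 34.7 on RASv12 arrays, against 7.98, 21.6 and 11.1 on control arrays, which all lay under background. In RASv12 cells it was higher by at least 1.32-fold (limma adjusted p = 0.019).

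These BCL2L1 calls were the least stable of the family. Leaving out RASv12 replicate 1, 2 or 3 or control replicate 3 each ended the call of 215037_s_at (adjusted p = 0.056 to 0.086), and leaving out RASv12 replicate 1 or 2 or control replicate 3 ended that of 206665_s_at (0.053 to 0.070). Probe set 212312_at passed over all probe sets under 7 of 15 alternatives. Which of the forms each probe set reads was not analysed here.

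BCL2, the founding anti-apoptotic gene of the family, was at or near background in both groups. Its probe set 207004_at read 14.8, 21.0 and 37.7 on RASv12 arrays and 21.9, 19.5 and 23.2 on control arrays. RASv12 replicate 3 gave the only value above 27.98 among the 24 values of its 4 probe sets. None passed, with limma adjusted p from 0.36 to 0.81. At this signal a change in BCL2 was not detectable, and no fold is given.

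The pore-forming members are the proteins that open the mitochondrial outer membrane. BAK1 sits there permanently, held by MCL1 and BCL-xL, and it rose. It read 105, 101 and 118 on RASv12 arrays, against 57.8, 63.6 and 75.9 on control arrays, with no overlap. The log2 change was 0.66 ± 0.12, with limma adjusted p = 0.0073.

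BAX, which moves from the cytosol to mitochondria on activation, is known as a target of p53. It did not pass. Probe set 211833_s_at read 129, 73.1 and 99.0 on RASv12 arrays and 90.8, 121 and 168 on control arrays. Probe set 208478_s_at read 80.6, 55.6 and 61.6 on RASv12 arrays and 46.4, 92.1 and 80.8 on control arrays. Groups overlapped in both, and control replicate 1 was the lowest control array in each. The log2 changes were -0.25 (95% interval -0.84 to 0.35) and -0.035 (-0.59 to 0.52), intervals that hold both falls and rises.

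Among the BH3-only members, PMAIP1 changed most. It encodes NOXA, which binds MCL1 and sends it for degradation. Probe set 204285_s_at read 712, 638 and 609 on RASv12 arrays, against 116, 147 and 158 on control arrays. Probe set 204286_s_at read 262, 295 and 209.8 on RASv12 arrays, against 58.6, 46.5 and 55.5 on control arrays. Each RASv12 value was more than 3 times any control value of its probe set. The rises were 2.09 ± 0.13 and 1.98 ± 0.14 on the log2 scale, with limma adjusted p = 8.1e-05 and 1.4e-04. The 3 called MCL1 probe sets with control values above background had log2 changes of 1.70, 2.03 and 2.19.

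BID links death receptors to mitochondria once caspase 8 has cut it. Its probe set 211725_s_at read 274, 259.7 and 259.5 on RASv12 arrays, against 155, 163 and 180.2 on control arrays. Probe set 204493_at read 127, 121 and 133 on RASv12 arrays, against 66.2, 90.4 and 81.7 on control arrays. The groups stood apart in both. The log2 changes were 0.61 ± 0.093 and 0.64 ± 0.12, with limma adjusted p = 0.0041 and 0.0099.

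BIK and BBC3 gave no call. BIK, which acts from the endoplasmic reticulum, read 5.90, 3.10 and 5.20 on RASv12 arrays and 4.41, 4.85 and 3.46 on control arrays, all under background. BBC3 encodes PUMA, a main executor of p53-driven death, and the annotation gives its probe set, 211692_s_at, to BBC3 and to the microRNA genes MIR3190 and MIR3191 together, so its signal cannot be given to BBC3 alone. It read 66.3, 73.7 and 73.6 on RASv12 arrays and 69.3, 24.6 and 65.7 on control arrays. The log2 change was 0.46 (95% interval -0.16 to 1.09), with limma adjusted p = 0.27, and control replicate 2 alone was lower than the rest. Without that array the log2 change was 0.14.

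**Figure D2:**
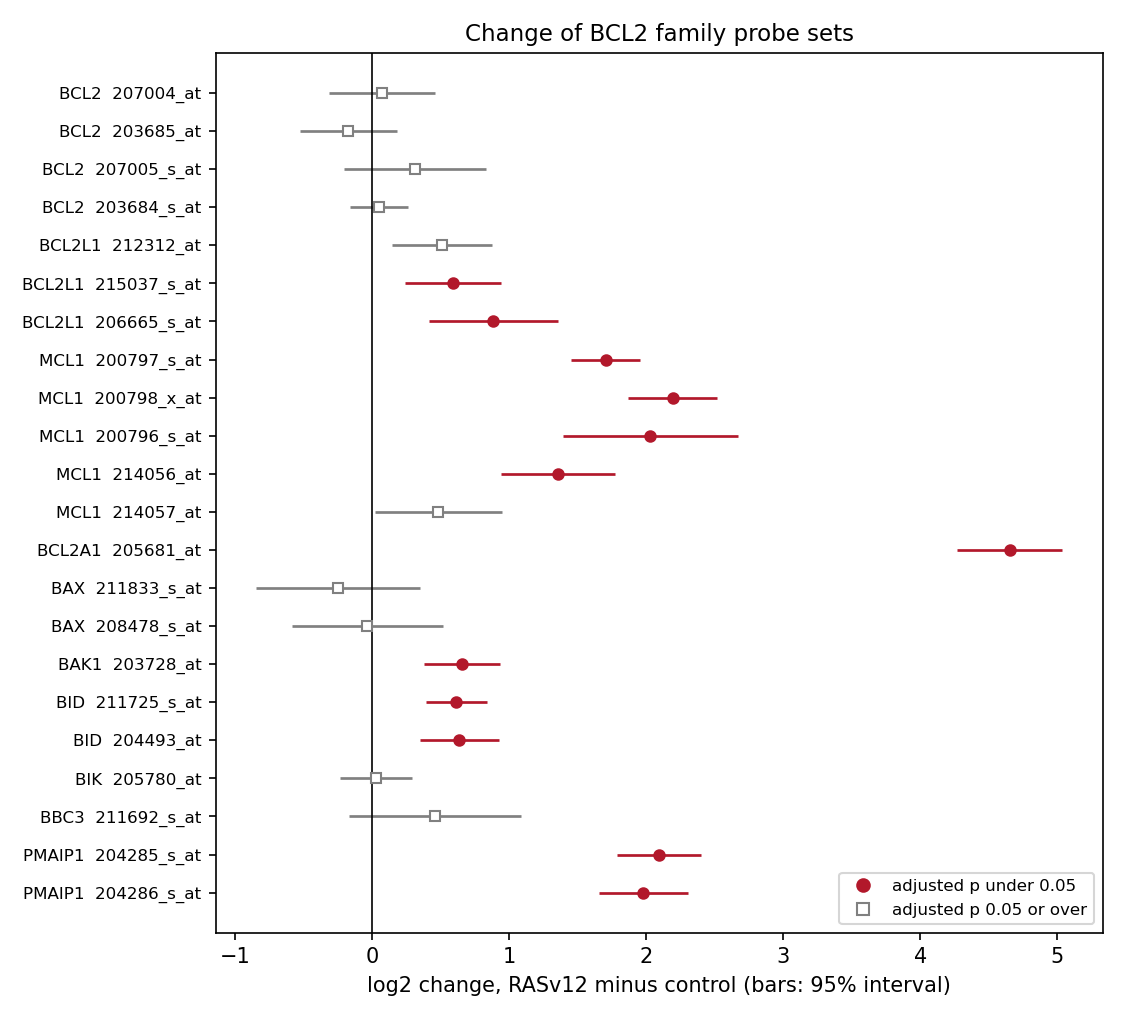
Log2 change (RASv12 minus control) of the 22 probe sets with 95% intervals from limma. Filled circles passed an adjusted p of 0.05 over all probe sets. The largest change is that of BCL2A1 at 4.65, followed by 3 MCL1 and 2 PMAIP1 probe sets between 1.70 and 2.19. The values of BCL2A1, MCL1 214056_at and 214057_at and BCL2L1 206665_s_at, with all control arrays under background, depend on the pseudocount. BCL2, BAX, BIK and the probe set shared by BBC3 and 2 microRNA genes have intervals that include 0. Those of BCL2L1 212312_at and MCL1 214057_at exclude 0, though neither passed.

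Another scaling bears on the size of these changes. The 18 hybridization control probe sets, which read transcripts added in fixed amounts, all read lower in RASv12 samples, with a mean log2 difference of -0.34. With scaling to them the median log2 change of all genes was 0.20, and 73.0% of all gene calls were rises, against 47.4% with the reported scaling. The family's 12 called rises were called under this scaling too, with 14 rises in all, and both BAX probe sets had changes just above 0 (0.011 and 0.18) without passing.

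**Figure D3:**
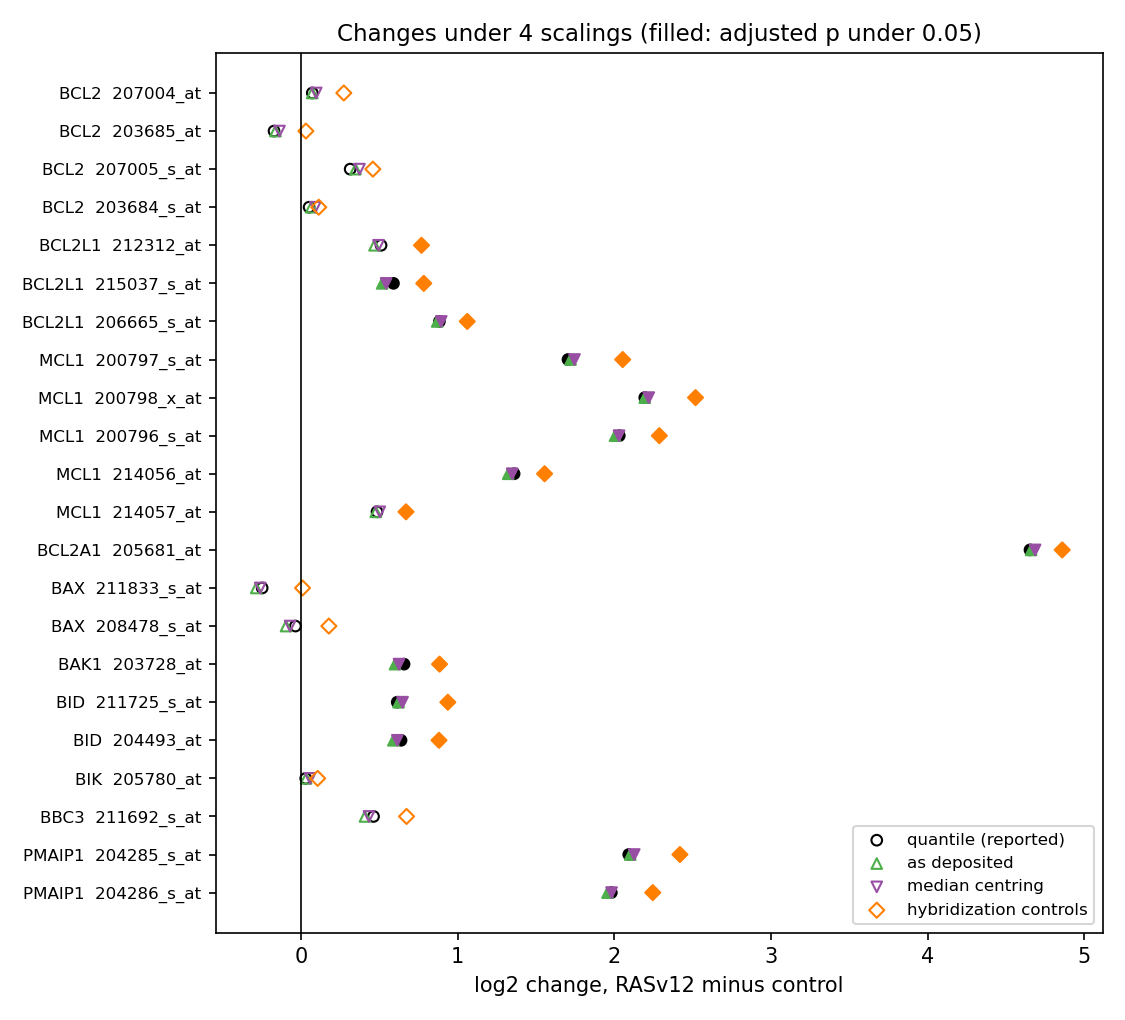
Log2 change (RASv12 minus control) of the 22 probe sets under 4 scalings of the arrays, with filled symbols where the adjusted p was under 0.05. Scaling to the hybridization controls shifts every probe set upward, to 2.05 for MCL1 200797_s_at, which is at 1.70 with quantile normalization, and to 0.011 and 0.18 for the 2 BAX probe sets, which are below 0 with it.

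The other genes of the pathway were read 1 probe set per gene. Over all 11963 genes, 13.9% were called higher and 15.5% lower, with a median log2 change of 0.020. Of 10 other BCL2 family genes measured, 2 rose, none fell and 8 missed the threshold, and the median was 0.14. Of the 10, 4 were at or under background on every array, where a fall could not be seen. In that list no gene was lower at an unadjusted p of 0.05, by either form of limma. BNIP3, a mitochondrial BH3-only protein that also marks mitochondria for autophagy, read 809, 762 and 566 on RASv12 arrays, against 224, 262 and 221 on control arrays. Its relative BNIP3L read 422, 452 and 422 on RASv12 arrays, against 151, 211 and 246 on control arrays. They rose by 1.51 ± 0.14 and 1.05 ± 0.17 on the log2 scale (limma adjusted p = 2.8e-04 and 0.0040). With the mean of its probe sets the log2 change of BNIP3L was 0.56.

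Downstream of the pore, 4 of 13 genes of the apoptosome, caspases and nucleases rose, 1 fell and 8 missed the threshold, and the median was 0.31. Cytochrome c (CYCS), which leaves mitochondria to assemble the apoptosome, averaged 1754 in intensity in RASv12 cells and 978 in control cells, and its log2 change was 0.81 ± 0.15 (limma adjusted p = 0.0068). The mitochondrial protease gene HTRA2, whose product relieves caspase inhibition, rose by 0.78 ± 0.14 and DFFA, the inhibitor and chaperone of the apoptotic nuclease, by 0.64 ± 0.13. CASP8, the initiator caspase that cuts BID, rose by 0.46 ± 0.097 (limma adjusted p = 0.012). The exception was CASP6, an executioner caspase that cuts lamin A, which averaged 35.2 in RASv12 cells and 124 in control cells and had a log2 change of -1.45 (limma adjusted p = 0.0026).

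Caspase inhibitors and death receptor adaptors moved both ways, with 2 of 7 up, 2 down, 3 below the threshold and a median of 0.36. CFLAR, which encodes the caspase 8 inhibitor FLIP, rose by 0.59 ± 0.095 (limma adjusted p = 0.0037), and by 0.33 with the mean of its probe sets. FADD, the adaptor that recruits caspase 8, had a log2 change of 0.40 (limma adjusted p = 0.033), a call that ended when any array other than RASv12 replicate 3 was left out. BIRC5, which encodes survivin, a protein of dividing cells, averaged 52.5 in RASv12 cells and 177 in control cells, a log2 change of -1.45 (limma adjusted p = 7.0e-05), and -2.78 with the mean of its 3 probe sets. NAIP was called lower (limma adjusted p = 0.0010) at intensities under background on all 6 arrays, so no fold is given.

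Among 12 partners of the family at the mitochondrial membrane, 5 rose, 1 fell and 6 missed the threshold, and the median was 0.26. PPIF, which encodes cyclophilin D of the permeability transition pore, read 1448, 1269 and 1382 on RASv12 arrays, against 458, 361 and 392 on control arrays. It rose by 1.71 ± 0.12 on the log2 scale (limma adjusted p = 9.8e-05). TMBIM6, the BAX inhibitor 1 gene, rose by 0.64 ± 0.12 and BCAP31, a BCL2-binding protein of the endoplasmic reticulum, by 0.52 ± 0.12. The call of TMBIM6 ended with the mean of its probe sets (0.35, limma adjusted p = 0.059). That of BCAP31 ended without control replicate 1 or 2 (limma adjusted p = 0.060 and 0.058) and with the replicate block. The fusion gene MFN2 was the gene called lower, at -0.42 (limma adjusted p = 0.014). The mean of its probe sets was at 0.069, and VDAC2 and DNM1L, the other genes called higher, each lost the call whichever array was left out.

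**Figure D4:**
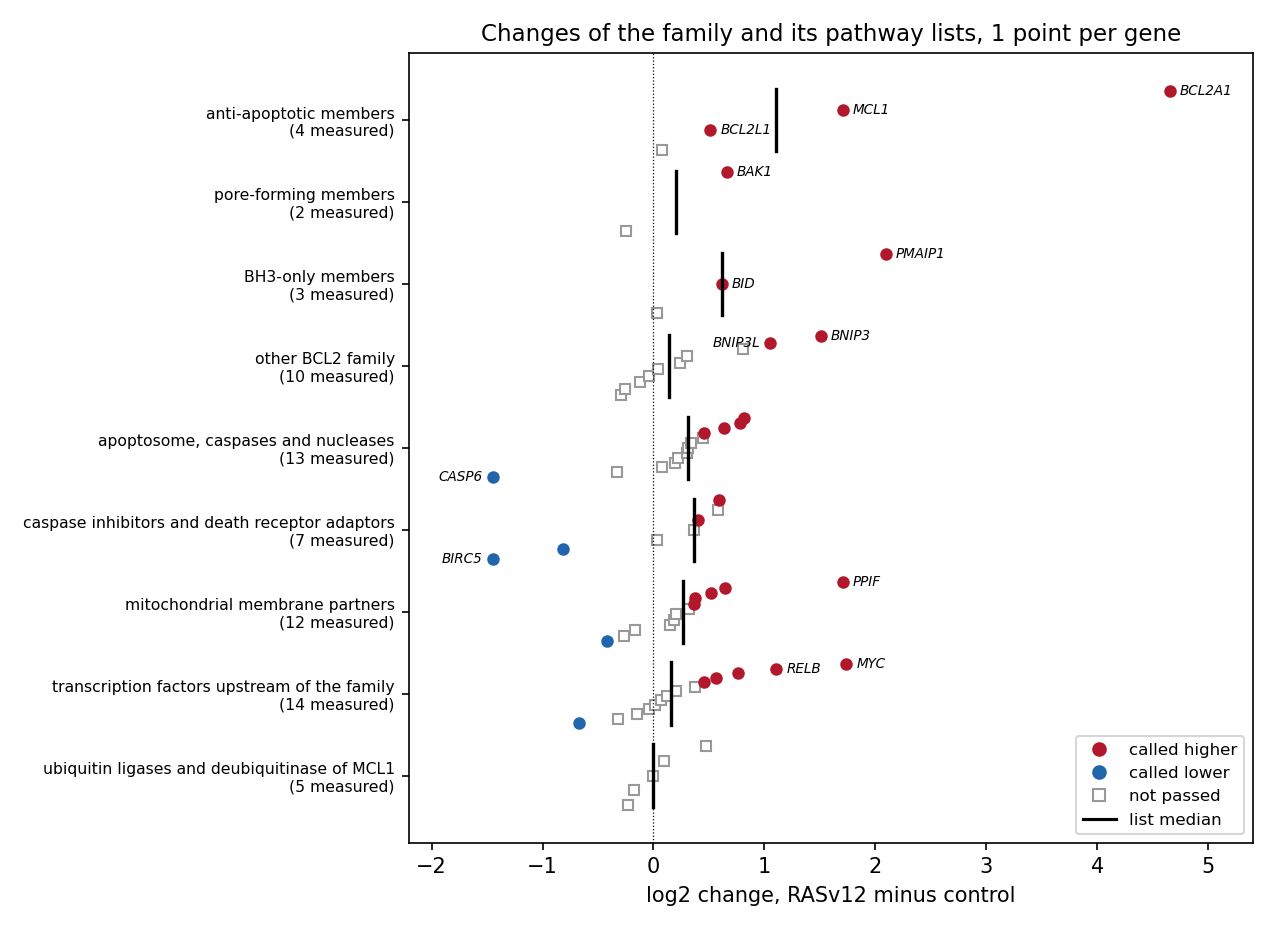
Log2 change (RASv12 minus control) of each measured gene of the family and of 6 pathway lists, 1 probe set per gene, with vertical bars at list medians. The anti-apoptotic members have a median of 1.11 and the MCL1 ubiquitin list a median of -0.0046, with BCL2A1 at 4.65 the highest gene and CASP6 and BIRC5 at -1.45 the lowest.

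Of 14 transcription factors known to act on the family, 5 rose, 1 fell and 8 missed the threshold, and the median was 0.16. MYC, which in many settings primes cells for apoptosis, read 426, 423 and 329 on RASv12 arrays, against 97.1, 118 and 104 on control arrays. It rose by 1.74 ± 0.13 on the log2 scale (limma adjusted p = 1.0e-04). The NF-kB subunit gene RELB was at least 2.26-fold higher and NFKB2 rose by 0.77 ± 0.15 (limma adjusted p = 0.0083), and by 0.44 with the mean of its probe sets. STAT3, a known activator of MCL1 and BCL2L1 transcription, averaged 245 in RASv12 cells and 395 in control cells, a log2 change of -0.67 (limma adjusted p = 0.0042). That call ended with scaling to the hybridization controls (-0.33) and with the mean of its probe sets (-0.29).

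The enzymes that set the half-life of MCL1 protein gave no call. Of 5 measured, none rose and none fell by limma. At an unadjusted p of 0.05, 1 was higher and none lower, with the same counts under the trend and robust options. TRIM17 was under background on all 6 arrays, and FBXW7 was at or under it on 2 RASv12 arrays and 1 control array. Changes in these genes could have been missed. BTRC, a ubiquitin ligase subunit that recognises phosphorylated MCL1, was nearest to the threshold, at 0.47 ± 0.15 (limma adjusted p = 0.053). The ligase gene HUWE1, read by the brightest of its 4 probe sets, averaged 5549 in intensity in RASv12 cells and 5658 in control cells. Its log2 change was -0.0046. The suffix of that probe set, _x_at, marks probes that may also bind other transcripts, so the signal may not come from HUWE1 alone.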

How the data were processed

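The authors deposited 1 table of linear signal intensities. MAS5 is the tool named, per the submitters' processing notes. The 2% trimmed mean was 100.0 on every array, so the deposited intensities had been scaled to a common brightness. No source used here gives its version or target. Of 22283 probe sets, 68 control probe sets were left out. Intensities were transformed as log2(value + 16), which understates changes of dim genes, quantile normalized between arrays, and tested with limma 3.58.1 (lmFit, eBayes) in R 4.3.3, with no filter and no block. Each gene was read by its brightest probe set (mean log2 over the 6 arrays). Background is the highest intensity of 27 bacterial control probe sets. Where all 3 values of 1 group lay at or under it, a fold is the mean log2 intensity of the brighter group against the dimmer group with its values raised to that level, written "at least". Symbols come from the platform annotation, updated through gene identifiers to RefSeq GRCh38.p14, with 19065 probe sets of 1 symbol, 1043 of several and 2107 of none. The procedure was tested on simulated data. All member probe sets are named. In other lists the rule names up to 4 called genes with the largest moderated t and no overlap, and exceptions in direction. CASP8, VDAC2, DNM1L, BTRC, HUWE1, TRIM17 and FBXW7 were named after their values were seen. Members, lists and motifs were chosen with earlier results of these data known. Alternatives were other pseudocounts, scalings, filters on dim probe sets, probe set means, eBayes options, a replicate block and leaving out each array. Replicate numbers are shared by the groups, but deviations of same-numbered arrays correlated at -0.23, -0.028 and -0.070, so no pairing was used. Some listed genes were not analysed here. Precision is limited by having 3 arrays a group.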

Additional observations from a re-analysis of the deposited data

How the results depend on the processing

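Over 15 alternatives to the reported settings, 10 to 14 family probe sets were called higher and none lower (10 to 12 when 1 array was left out), and over 16 alternatives 5 or 6 family genes were called higher and none lower. The 10 called probe sets of BCL2A1, MCL1, PMAIP1, BID and BAK1 passed under all 15. The fitted log2 change of BCL2A1 ran from 3.05 with a pseudocount of 64 to 6.66 with a pseudocount of 1. Changes of sign were seen in probe sets that did not pass: BCL2 207004_at at -0.099 without RASv12 replicate 3 (up to 0.20 without another array), BCL2 203685_at at 0.032 with scaling to the hybridization controls, and BIK at -0.052 without RASv12 replicate 1 (up to 0.098 without another). BAX 211833_s_at was at 0.011 and BAX 208478_s_at at 0.18 with that scaling, and this probe set was at 0.046 and 0.029 without RASv12 replicates 2 and 3 and at 0.12 and 0.048 without control replicates 2 and 3, but at -0.27 without control replicate 1. MFN2, called lower, was at 0.069 with the mean of its probe sets. The cause of these changes was not tested.

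Counts in the pathway lists moved more. With scaling to the hybridization controls, which gave 4375 rises and 1675 falls over all probe sets, 7 apoptosome and caspase genes, 4 inhibitors and adaptors, 8 mitochondrial partners and 1 MCL1 ubiquitin gene were called higher, and 0 mitochondrial partners and 0 transcription factors lower. A pseudocount of 1 gave 1 inhibitor and 3 mitochondrial partners higher, and a pseudocount of 64 gave 1 ubiquitin gene higher and 2 mitochondrial partners lower. Without the dimmest 25% or 50% of probe sets, 1 inhibitor was called lower and 1 ubiquitin gene higher. Median centring and the mean of probe sets each gave 0 mitochondrial partners lower, and the mean gave 1 ubiquitin gene lower. Leaving out 1 array gave 0 to 1 other BCL2 family genes lower, 1 to 3 inhibitors higher, 2 to 3 mitochondrial partners higher and 0 to 1 lower, 1 to 2 transcription factors lower and 0 to 1 ubiquitin genes higher. Deviations of same-numbered arrays showed no positive correlation, which does not settle whether these arrays were paired. With the replicate block, 13 family probe sets were called higher, as were 1 inhibitor and 2 mitochondrial partners, with 0 partners lower, and over all probe sets there were 1718 rises and 2134 falls, against 2506 and 2893. Without control replicate 3 there were 1676 and 2030. Probe sets near background, among them those of BCL2 and BIK, limit what could be detected.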
